A study of Mus musculus with 22 samples.

Results

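Chromatin accessibility in the frontal cortex 6 h after a lipopolysaccharide (LPS) challenge was compared with that 6 h after saline, in 5 of the 22 libraries of the series. The 3 LPS libraries (replicates 1, 3 and 4, CORT+DFP+LPS, 6 h) and the 2 saline libraries (replicates 2 and 3, CORT+DFP+Saline, 6 h) were chosen by their labels, and each came from 1 mouse. Every animal, saline controls included, was an adult male wild type C57BL/6J mouse given corticosterone (CORT) in drinking water for 7 days, 1 injection of the organophosphate diisopropyl fluorophosphate (DFP) on day 8 and intermittent CORT over 5 weeks, a model of Gulf War Illness. LPS or saline was given on the last day, so no group without CORT and DFP enters the comparison. Hippocampus of the same 5 animals and cortex taken 12 h and 24 h after LPS are used for side-by-side values. The assay was OMNI-ATAC-seq on 20 to 30 mg of frozen tissue, in which a transposase cuts open chromatin, so that a peak marks a stretch that was accessible in part of the cells. In bulk tissue, fewer cells with an open site and a less open site per cell cannot be told apart.

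LPS, a component of the outer membrane of Gram-negative bacteria, is sensed by Toll-like receptor 4 and activates the transcription factor NF-kB, which is held in the cytoplasm by inhibitors such as Nfkbia until they are degraded. NF-kB and interferon-regulated factors then drive genes for cytokines, chemokines and their own inhibitors. Glucocorticoids such as corticosterone act through the receptor Nr3c1, which induces genes such as Fkbp5 and restrains much of the NF-kB response.

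The peak lists were of like size in both groups. Distinct peak intervals numbered 244556, 204599 and 243590 in the LPS libraries and 265239 and 219391 in the saline libraries, and the groups overlapped. The means were 230915 ± 22795 for LPS (SD, n = 3) and 242315 ± 32419 for saline (SD, n = 2; two-sided exact permutation test, p = 0.7). With 10 possible splits of 3 against 2 libraries, the smallest p such a test can give is 0.1. Peaks within 1 kb of an end of a protein-coding gene made up 9.12%, 10.1% and 9.21% of intervals in the LPS libraries and 8.91% and 9.95% in the saline libraries (exact permutation test, p = 1). The deposited peak lists hold no read totals, so the depth of each library is unknown.

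2 libraries stood apart. Across 353054 windows reaching 250 bp to each side of a peak summit, 157184 had a peak in all 5 libraries and 94727 in a single library. The windows with a peak in 1 library alone numbered 20268, 10215 and 14923 in LPS replicates 1, 3 and 4, and 37277 and 12044 in saline replicates 2 and 3. LPS replicate 1 had a Jaccard index (shared over combined windows) of 0.765 to 0.774 with the cortex libraries taken 24 h after LPS. With the other LPS libraries of its own time point the index was 0.667 and 0.713. The windows hold summits of the 5 libraries alone, so peaks found only in an outside library do not lower an index with it. Indices with outside libraries are thus raised by construction and cannot be set against those within the 5. LPS replicate 4 was about as close to those 24 h libraries (0.747 to 0.774), and LPS replicate 3 was farther from them (0.685 to 0.70). Saline replicate 2 had a Jaccard index of 0.672 with the hippocampus library of its own animal, which is an outside library. Within the 5 libraries its index was 0.636 with the other cortical saline library and 0.656, 0.617 and 0.671 with LPS replicates 1, 3 and 4. Its index with the cortex libraries at 12 h and 24 h was 0.658 to 0.720, and with the other hippocampus libraries 0.540 to 0.591. Of the windows found in LPS replicate 1 alone, 42.6%, 35.4% and 34.4% had a peak in the 3 cortex libraries at 24 h, and 8.21% to 12.0% in those at 12 h. For the windows found in LPS replicate 4 alone, these were 22.1%, 19.7% and 30.9% at 24 h and 13.1% to 18.0% at 12 h. Of those found in saline replicate 2 alone, 41.0% had a peak in the hippocampus of the same animal, and 19.9% in the other saline hippocampus. The region shares and the window, promoter and gene list counts below are therefore given with and without LPS replicate 1.

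**Figure D1:**
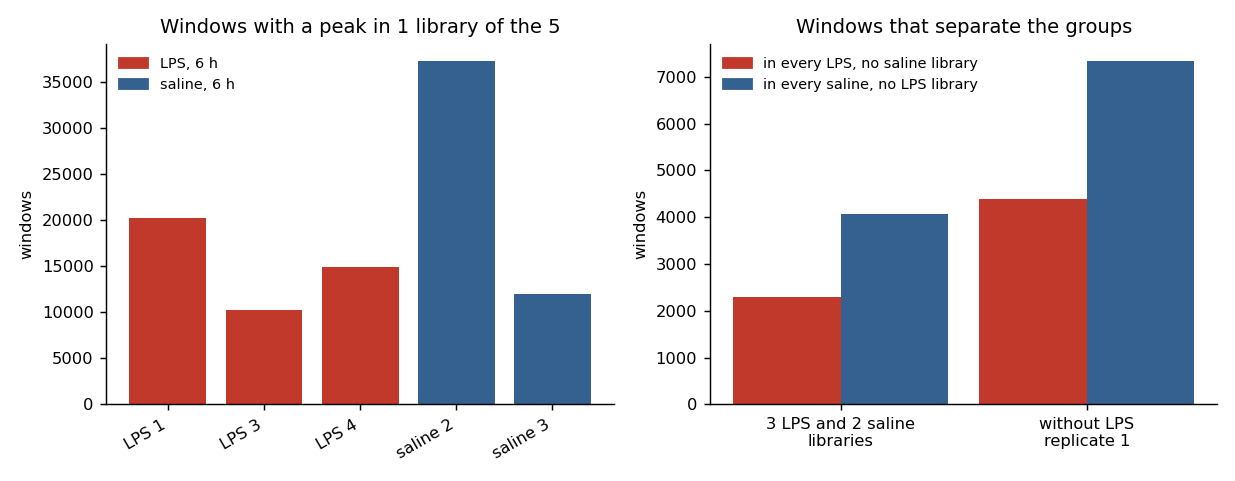
Left, windows (count) with a peak in a single library of the 5, by library; right, windows with a peak in every library of one group and none of the other, with all libraries and without LPS replicate 1. Saline replicate 2 had the most windows of its own, 37277, and leaving out LPS replicate 1 took the LPS-only count to 4384, against 2305 with all libraries.

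The labelled tissue was checked against marker genes. Windows near genes of cortical layers and projection neurons (27 genes, among them Emx1, Tbr1 and Fezf2) carried peaks at a rate of 68.5%, 59.6% and 69.8% in LPS replicates 1, 3 and 4, and of 74.2% and 63.7% in saline replicates 2 and 3. Set against all windows of the same library these shares were -0.53, 1.36 and 0.99 percentage points off in the LPS libraries and -1.05 and 1.55 in the saline libraries, while in the hippocampus libraries they were 4.24 to 7.14 points below. Hippocampal region markers (12 genes, such as Prox1 and Zbtb20) were 4.18 to 8.04 points above all windows in hippocampus, against 2.86, -1.48 and 1.44 points in cortex after LPS and 0.15 and 0.02 points in cortex after saline. In the 24 h cortex libraries they were 5.07, 4.78 and 5.51 points above, within the range of hippocampus, so this list did not tell the tissues apart at every time. Markers of striatal medium spiny neurons (25 genes, such as Drd1, Drd2, Penk and Pde10a) set LPS replicate 1 apart: their windows were 2.94 points above all windows there, and 2.99 and 3.96 points below in LPS replicates 3 and 4 and 3.05 and 4.90 points below in saline replicates 2 and 3. Of 1137 striatal marker windows, 107 (9.41%) had a peak in LPS replicate 1 alone of the 5 libraries, against 5.74% of all windows. Over all gene lists this share ran from 3.21% (astrocyte) to 12.9% (blood cell), with inhibitory neuron markers at 8.70% and hippocampal markers at 8.04%. The blood cell list, of only 62 windows, was 8.42 points above all windows in LPS replicate 1 and 5.39 above in saline replicate 2. It was 3.38 and 5.87 points below in LPS replicates 3 and 4 and 8.93 below in saline replicate 3. The striatal markers also lay 1.55 and 0.09 points above all windows in replicates 1 and 3 of the 24 h cortex, and 2.37 points below in replicate 4. The part of this in the results for LPS replicate 1 was not tested.

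The authors' deposited table for this contrast lists 202 regions as more accessible after LPS and 164 as less accessible, each with a false discovery rate (FDR) from csaw, a window-based count test, and no fold change. The values that chose these regions came from these libraries, so the shares below are a description. In the authors' deposited table the regions with the lowest FDR on the higher side lay on chromosome 1 at 24611551-24616160 (3 regions, lowest FDR 6.15e-51), on chromosome 12 at 97061451-97061760 (FDR 7.77e-47), near Mid1 on the X chromosome and beside Erdr1 on the Y chromosome (both FDR 8.95e-33), and in an intron of Myo3a (FDR 8.17e-32). Also among the 15 leading loci of the authors' deposited table were the histone genes of chromosome 13 near H4bc24 and H2ac23 (FDR 2.06e-29 and 1.53e-27), the promoter of Slc25a37, a mitochondrial iron importer (FDR 4.89e-29), and the zinc finger gene Zfp433 (FDR 1.54e-27). No region of the higher set had a gene of the inflammatory, interferon or glucocorticoid lists as its nearest gene. These lists held only 519, 191 and 541 of the 353054 windows, so their absence among 202 regions says little.

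All of the 15 leading higher loci of the authors' deposited table had a peak in LPS replicate 1 and in none of the other libraries, cortex or hippocampus. The next locus, near Gm19802 (FDR 5.01e-26 in the authors' deposited table), had a peak in all of them. Of the 202 higher regions in the authors' deposited table, 96.5%, 43.6% and 51.0% held a peak in LPS replicates 1, 3 and 4, against 47.0% and 44.6% in saline replicates 2 and 3. The other LPS libraries and the saline libraries overlapped. The mean share was 63.7 ± 28.7% after LPS (SD, n = 3) and 45.8 ± 1.75% after saline (SD, n = 2), a difference of 17.9 points, which was 1.49 points without LPS replicate 1. In the authors' deposited table, 90 higher regions had a peak in LPS replicate 1 alone of the 5 libraries, 75 in all 5 and 2 in the 3 LPS libraries alone. Of those 90 regions of the authors' deposited table, 60 had no peak in any of the 11 other libraries, and 29 had one in a cortex library at 24 h. In cortex at 12 h, 47.5% to 49.0% of the higher regions of the authors' deposited table held a peak, and at 24 h 61.4% to 63.9%.

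Some of the higher regions lay at promoters that occur nearly unchanged elsewhere in the genome. Of the 202 higher regions of the authors' deposited table, 53 overlapped a promoter and 25 a copied one. A promoter was called copied where at least 80% of its words of 25 bases were found in another promoter, and 853 of 32851 promoters (2.60%) were. Of the 70 promoters at higher regions of the authors' deposited table, 30 (42.9%) were copied, and of the 2 at lower regions none was. The paralogous promoters of Mterf1a and Mterf1b, which encode a mitochondrial transcription termination factor, and of the zinc finger genes Zfp955a and Zfp955b show how alike they are. The RefSeq sequences (GRCm38.p6, 250 bases before the start to 50 after) are given 5′ to 3′, with capitals where Mterf1a and Mterf1b differ.
Mterf1a, chr5:3893884-3894183, minus strand: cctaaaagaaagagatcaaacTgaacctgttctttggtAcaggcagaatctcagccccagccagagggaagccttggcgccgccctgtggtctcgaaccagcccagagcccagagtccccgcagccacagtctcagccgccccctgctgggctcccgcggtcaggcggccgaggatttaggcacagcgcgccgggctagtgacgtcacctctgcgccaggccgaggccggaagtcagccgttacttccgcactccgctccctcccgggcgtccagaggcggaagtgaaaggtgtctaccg
Mterf1b, chr5:4192117-4192416, plus strand: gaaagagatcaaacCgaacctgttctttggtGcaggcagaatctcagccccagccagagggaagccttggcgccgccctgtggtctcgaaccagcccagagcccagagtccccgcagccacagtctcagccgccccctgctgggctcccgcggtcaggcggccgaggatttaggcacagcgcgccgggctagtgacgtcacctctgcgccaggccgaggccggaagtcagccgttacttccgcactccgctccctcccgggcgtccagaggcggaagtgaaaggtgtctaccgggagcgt
Zfp955a, chr17:33255096-33255395, minus strand: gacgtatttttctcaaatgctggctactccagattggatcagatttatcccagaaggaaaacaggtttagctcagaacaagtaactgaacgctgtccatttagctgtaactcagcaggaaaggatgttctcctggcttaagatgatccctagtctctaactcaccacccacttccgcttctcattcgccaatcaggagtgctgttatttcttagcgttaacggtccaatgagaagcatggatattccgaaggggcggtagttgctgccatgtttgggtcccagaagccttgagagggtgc
Mterf1a and Mterf1b agree at 291 of 293 bases in line and differ at 2, and Zfp955b, at chr17:33289294-33289593 on the plus strand, has the same 300 bases as Zfp955a. Each of these 4 promoters had a peak in LPS replicate 1 alone of the 5 libraries, and each lay at a higher region of the authors' deposited table (FDR 1.29e-24 and 4.57e-24 for Mterf1a and Mterf1b, 2.29e-21 and 2.86e-21 for Zfp955a and Zfp955b). The same held for Mthfsl and Mthfs, for Zfp781 and Gm3055, and for H3c15 and H3c14.

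Over all copied promoters, LPS replicate 1 had a peak at 51 of 853 (5.98%), LPS replicates 3 and 4 at 0.586% and 1.06%, and saline replicates 2 and 3 at 0.586% and 0.938%. In the 11 other libraries the share ran between 0.352% and 1.17%, so LPS replicate 1 lay above every other library. Promoters that shared no word with another were occupied by a peak at 52.5%, 50.9% and 52.8% after LPS, against 53.4% and 52.3% after saline. Of promoters with a peak in 1 library alone, 41 of 278 in LPS replicate 1 were copied, and 0 of 92 and 0 of 173 in LPS replicates 3 and 4 and 0 of 411 and 0 of 141 in saline replicates 2 and 3. The handling of reads that match several places, for which the sources used here give no setting, was not tested for its part in these peaks.

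**Figure D2:**
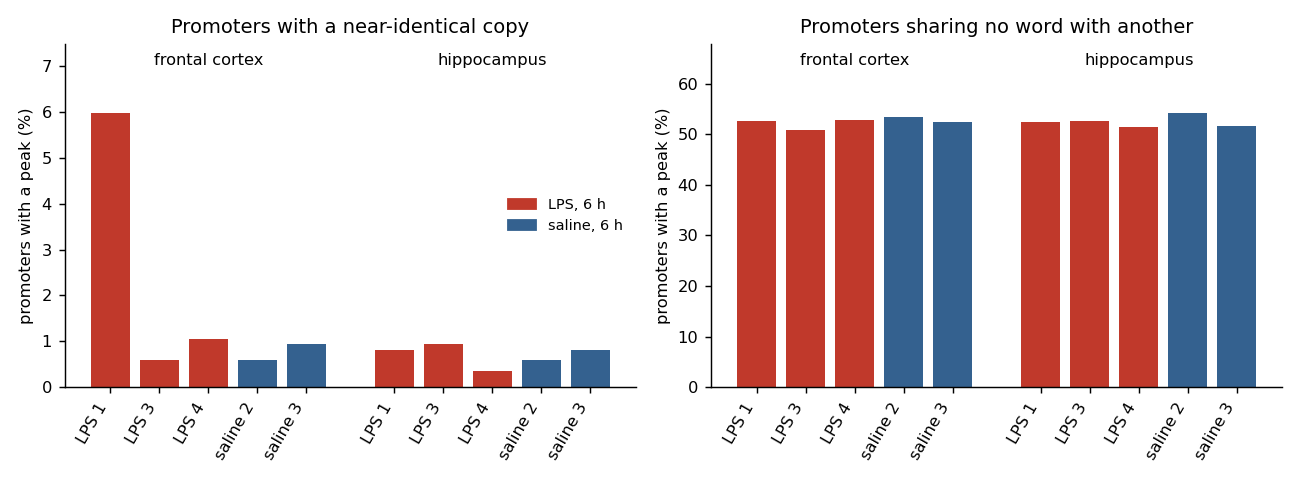
Share of promoters with a peak (%) in each cortex and hippocampus library at 6 h, for promoters with a near-identical copy (left) and those sharing no 25-base word with another promoter (right) on axes of different scale. Copied promoters had a peak in 5.98% of cases in cortical LPS replicate 1 and in at most 1.06% in the other cortex libraries.

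Regions listed as lower after LPS in the authors' deposited table followed saline replicate 2. Low FDRs in the authors' deposited table were found near Nsun2, an RNA methyltransferase (FDR 3.02e-07), and in an intron of Adgrb3, a synaptic adhesion receptor (FDR 8.13e-05). Of the 164 lower regions of the authors' deposited table, 74.4%, 44.5% and 65.9% held a peak in LPS replicates 1, 3 and 4, against 98.8% and 61.6% in saline replicates 2 and 3. Saline replicate 3 lay within the range of the LPS libraries. The mean share was 61.6 ± 15.4% after LPS (SD, n = 3) and 80.2 ± 26.3% after saline (SD, n = 2), a difference of -18.6 points, which was -25.0 points without LPS replicate 1 and 0 points without saline replicate 2. Only 4 lower regions of the authors' deposited table had a peak in both saline libraries and in no LPS library, while 26 had one in saline replicate 2 alone.

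5 of the lower regions in the authors' deposited table had a gene of the fixed lists as the nearest gene. The 15 lists held 326 of the 21887 protein-coding genes, and whether list genes were more frequent at the regions was not tested. These were Rgs9 (FDR 0.0094), a striatal regulator of G-protein signalling, Plin4 (FDR 0.0135), a lipid-droplet protein induced by glucocorticoids, the glutamate transporter Slc1a2 (FDR 0.0372), the myelin enzyme Ugt8a (FDR 0.0482) and the endothelial cadherin Cdh5 (FDR 0.0464), all from the authors' deposited table. The Plin4 region, at its promoter, had a peak in all 5 libraries. Its fold enrichment over background, the authors' value in each list, was 5.44, 2.75 and 3.43 after LPS and 5.65 and 4.51 after saline. The Rgs9 region also had a peak in all 5, with folds of 3.44, 2.53 and 2.88 after LPS and 7.99 and 2.50 after saline. At the Ugt8a and Cdh5 regions LPS replicate 3 had no peak and saline replicate 2 had the highest fold (10.9 and 6.66), and at the Slc1a2 region only LPS replicate 1 (1.97) and saline replicate 2 (5.83) had one. On the higher side the authors' deposited table held 2 such regions, an intron of the phosphodiesterase gene Pde10a (FDR 0.0260) and a region 60586 bp from the opioid peptide gene Penk (FDR 0.00128). Both are striatal markers. The Penk region had a peak in LPS replicate 1 alone of the 5 libraries, and the Pde10a region in LPS replicate 1 (fold enrichment 6.84) and saline replicate 2 (3.16).

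In the hippocampus of the same animals a peak lay in 47.5%, 47.5% and 43.1% of the higher regions of the authors' deposited table after LPS, and in 49.5% and 44.1% after saline. The difference was -0.743 points (two-sided exact permutation test, p = 0.9). Of the lower regions of the authors' deposited table, 54.3%, 51.2% and 44.5% were occupied in the LPS hippocampus, and 89.6% and 51.2% in the saline hippocampus, a difference of -20.4 points (exact permutation test, p = 0.3), which was -1.22 points without saline replicate 2. Saline replicate 2 was high in both tissues, and saline replicate 3 lay within the LPS range in both.

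**Figure D3:**
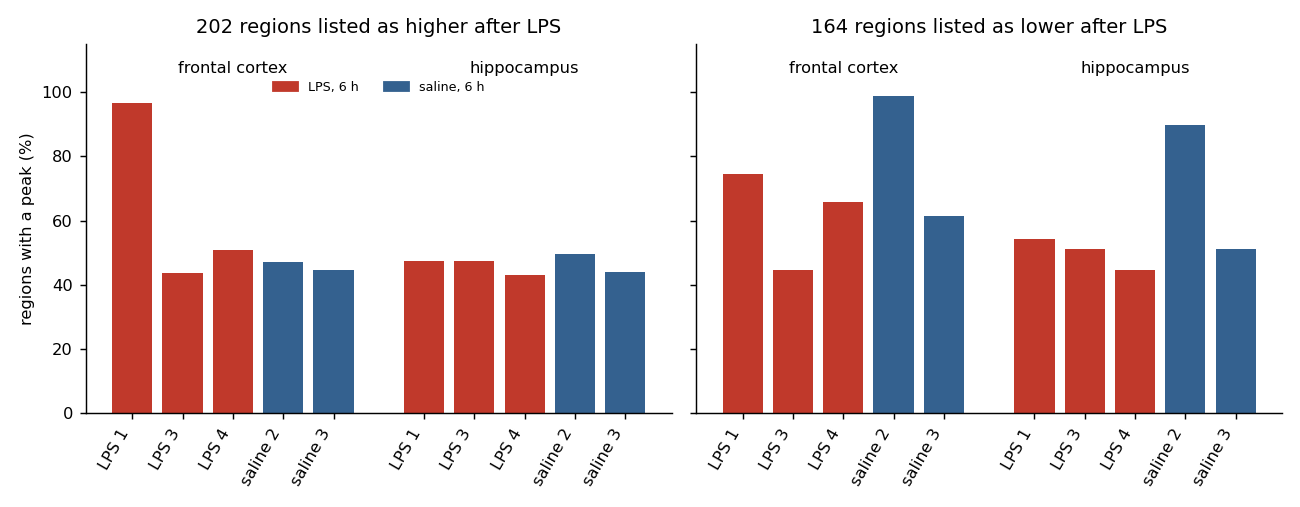
Share (%) of the 202 higher and 164 lower regions of the authors' deposited table that hold a peak, by library, in frontal cortex and in hippocampus of the same animals at 6 h. Cortical LPS replicate 1 stands at 96.5% for the higher regions, and saline replicate 2 at 98.8% in cortex and 89.6% in hippocampus for the lower regions.

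Windows in which the groups separated were few. A peak in every LPS library and no saline library was found in 2305 windows (0.653% of all), and the reverse in 4061 (1.15%). Without LPS replicate 1 the counts were 4384 (1.24%) and 7336 (2.08%), with more saline-only than LPS-only windows both times. The order turned round without LPS replicate 3, with 7427 LPS-only and 5331 saline-only windows. Of the 2305 LPS-only windows, 5.42% lay within 1 kb of a gene end and 58.6% inside a gene, and of the 4061 saline-only windows 9.18% and 63.1%, against 9.57% and 60.3% of all windows.

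The strongest separating windows were edges of shared peaks. Windows were ranked by the position of their weakest peak in its own library's list, counted in percent from the top. The 10 leading LPS-only windows, among them Hmgcs1 (cholesterol synthesis), Prkaca (a catalytic subunit of protein kinase A) and Tcof1, and the 10 leading saline-only windows, among them Kif18a, Nbeal1 and Rpl37, each touched a peak of the other group that covered too little of the window to count. After windows touched by any peak of the other group were set aside, 2137 LPS-only windows and 3613 saline-only windows were left. None of these ranked in the top 10% of all lists that carried it: the best LPS-only window, on chromosome 6 at 103953307-103953807 with no gene within 100 kb, ranked at 46.5%, and the best saline-only window, in Lamc1, a laminin chain, at 21.4%. The medians were 88.4% and 89.3%, near the bottom of the lists. The untouched windows next in rank on the LPS side lay near Elovl2, an enzyme that lengthens fatty acids (48.6%), and in Rbfox1, a neuronal splicing factor (50.7%), and on the saline side near Cbr4 (22.3%) and in Gnai2, a G-protein subunit (27.0%). These examples were chosen after their values were seen. The window in Rbfox1 had a peak in all 6 later cortex libraries and in no hippocampus library.

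**Figure D4:**
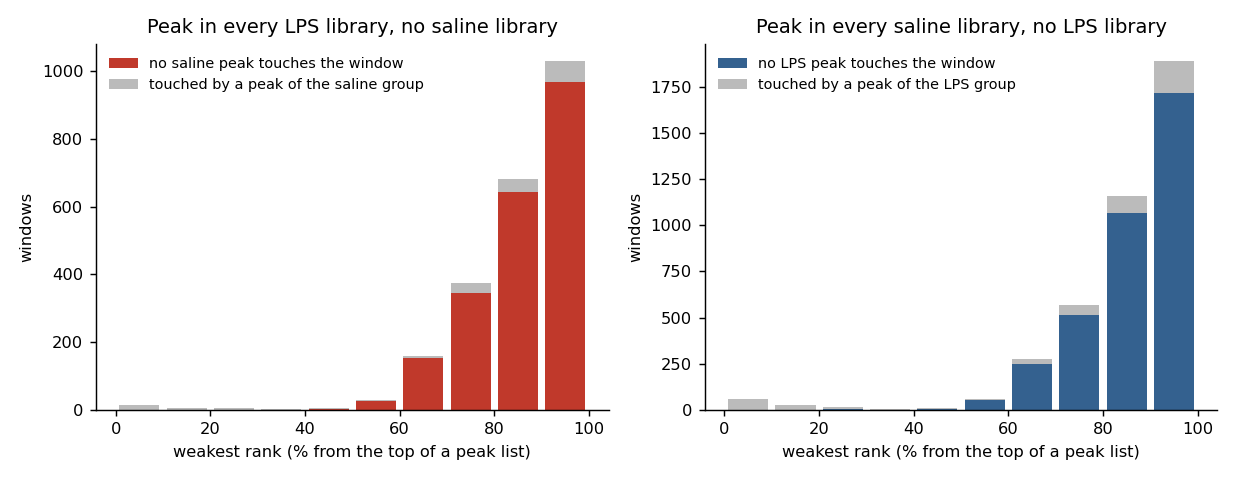
Windows that separate the groups, binned by the rank of their weakest peak (percent from the top of that library's list), with windows whose edge a peak of the other group touches in grey. Coloured windows crowd at the weak end, with medians of 88.4% on the LPS side and 89.3% on the saline side, and the bin up to 10% holds grey windows alone.

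At annotated promoters, 33 of 32851 (0.1%) had a peak in every LPS library and no saline library, and 87 (0.265%) the reverse. Without LPS replicate 1 these were 67 (0.204%) and 144 (0.438%). Among the 50000 strongest peaks of each library the counts were 41 LPS-only and 39 saline-only promoters, so the excess on the saline side was not seen there. No peak of the other group touched 20 of the 33 and 42 of the 87. Bcl3, an atypical NF-kB inhibitor that binds p50 and p52, was the member of the inflammatory list among the 33. Its peak ranked at 57.2%, 88.1% and 36.8% in LPS replicates 1, 3 and 4, with fold enrichments of 3.80, 2.36 and 5.45, and no peak was called in saline replicates 2 and 3. The same promoter had a peak in all 6 later cortex libraries, in all 3 LPS hippocampus libraries and in both saline hippocampus libraries. The saline hippocampus thus carried the peak that the saline cortex lacked.

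The Bcl3 promoter and that of Nfkbia, which had a peak in every library, are shown with matches to the NF-kB consensus in capitals (both strands searched; RefSeq, GRCm38.p6). Plek, encoding the leukocyte protein pleckstrin, is shown as another promoter with LPS-only peaks and has no match.
Bcl3, chr7:19822706-19823005, minus strand: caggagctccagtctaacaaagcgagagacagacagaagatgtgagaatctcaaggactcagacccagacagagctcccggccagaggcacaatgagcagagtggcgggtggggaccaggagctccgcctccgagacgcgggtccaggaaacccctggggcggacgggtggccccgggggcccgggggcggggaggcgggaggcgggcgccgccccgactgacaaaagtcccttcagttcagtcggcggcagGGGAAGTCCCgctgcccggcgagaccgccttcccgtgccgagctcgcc
Nfkbia, chr12:55492598-55492897, minus strand: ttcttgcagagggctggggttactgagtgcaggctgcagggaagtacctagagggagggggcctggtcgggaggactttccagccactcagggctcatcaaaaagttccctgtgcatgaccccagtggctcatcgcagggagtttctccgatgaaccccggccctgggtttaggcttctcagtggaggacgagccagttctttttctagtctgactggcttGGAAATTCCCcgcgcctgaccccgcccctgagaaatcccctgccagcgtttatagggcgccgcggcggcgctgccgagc
Plek, chr11:17008669-17008968, minus strand: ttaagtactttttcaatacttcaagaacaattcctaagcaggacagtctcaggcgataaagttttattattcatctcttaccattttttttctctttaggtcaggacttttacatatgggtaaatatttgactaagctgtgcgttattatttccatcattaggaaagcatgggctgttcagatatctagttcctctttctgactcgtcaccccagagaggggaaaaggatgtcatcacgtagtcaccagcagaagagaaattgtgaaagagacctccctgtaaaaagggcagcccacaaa
The consensus matched 13 of 35 promoters of the inflammatory list (37.1%), 8 of the 33 LPS-only promoters (24.2%), 8 of the 87 saline-only promoters (9.20%) and 8.46% of all promoters. Of the 8 LPS-only promoters with a match, the protein-coding genes were Bcl3, Slc35d3 and Slc29a1. The 32851 promoters belong to 27025 gene symbols, so several starts of one gene count separately. A saline peak touched 13 of the 33 LPS-only promoters. The matches were not counted without LPS replicate 1, and the difference between the sets was not tested.

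Further LPS-only promoters were those of Ifitm6 and Slfn8, family members of interferon-induced genes, Tmem163, Tfap2a and Isl2. Plek ranked at 79.9%, 51.8% and 56.7% in the LPS libraries and Slfn8 at 78.1%, 98.2% and 75.8%. Like Bcl3, Plek had a peak in all of the 11 other libraries, whereas Tmem163 (31.1%, 41.0% and 38.4%) had one in 2 of the 6 later cortex libraries and in 1 of the saline hippocampus libraries. Saline-only promoters that no LPS peak touched included Lyz2, the lysozyme of myeloid cells, with ranks of 66.3% and 59.7% in saline replicates 2 and 3, Tnfsf11, the RANK ligand (57.4% and 83.1%), and Ifi209, an interferon-induced gene (86.6% and 59.7%). The Lyz2 promoter shares 22.5% of its words of 25 bases with that of its paralog Lyz1, and Ifi209 46.7% with Ifi214. Both shares are under the 80% set for a copied promoter, and the part of shared sequence in these peaks was not tested. Stronger saline-only promoters, such as that of Tph2, the neuronal tryptophan hydroxylase (8.48% and 26.8%), were touched by an LPS peak.

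The regulators of the NF-kB pathway had peaks in both groups. Nfkbia ranked at 9.0%, 9.54% and 8.04% after LPS and at 7.95% and 9.95% after saline. Tnfaip3, the ubiquitin-editing inhibitor A20, ranked at 5.09%, 4.45% and 5.26% after LPS and at 5.37% and 5.84% after saline. The groups overlapped for Nfkbia. For Tnfaip3 the 3 LPS ranks were all nearer the top than the 2 saline ranks, by a narrow gap (5.26% against 5.37%). Promoter ranks of Socs3 separated the same way by a wider gap, and so did those of genes of other lists, such as Dusp1 and Nr3c2. Those of Plin4, Stat2 and Chrna4 separated the other way, with the saline ranks nearer the top. Such separations were not counted over genes, and whether they reflect LPS was not tested. Of 30 inflammatory genes with an annotated promoter, 13 had a peak in all 5 libraries, among them Rela, Ptgs2, Socs3 and Tlr2, and 8 in none, among them Il1b, Cxcl2, Lcn2 and Saa3. Tnf had a peak in the 3 LPS libraries (51.7%, 70.6% and 65.7%) and in saline replicate 2 (79.3%). Icam1 had a weak peak (76.5%) in LPS replicate 1 alone of the 5, and Cxcl1 had one in LPS replicates 1 and 4 and saline replicate 2. Of the 11 other libraries, 9 had a peak at Tnf, 9 at Icam1 and 6 at Cxcl1. Around the 40 inflammatory genes, 5 of 519 windows were LPS-only (0.963%) and 6 were saline-only (1.16%). Without LPS replicate 1 these were 5 and 9. The 5 LPS-only windows lay near Socs3, Il1b, Cebpb and Tlr4, the LPS receptor, and at Bcl3, and the one near Socs3 was touched by a saline peak. The 6 saline-only windows lay near Nfkbiz, an NF-kB cofactor (2 windows), the chemokine gene Cxcl1, the LPS-binding protein gene Lbp and the cytokine receptor genes Il1r1 and Il4ra, and those near Lbp and Il1r1 were among the windows that an LPS peak touched.

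Of the other signalling lists, interferon genes had 2 LPS-only and 5 saline-only of 191 windows. Irf1, Irf8, Stat2, Stat3 and Ifit2 had promoter peaks in all 5 libraries, and Isg15, Oasl2 and Cxcl9 in none. Glucocorticoid and stress genes had 4 LPS-only and 10 saline-only of 541 windows. All 18 of these genes with an annotated promoter had a promoter peak in all 5 libraries. The promoter of Fkbp5, a co-chaperone of the glucocorticoid receptor, ranked at 1.02%, 1.10% and 0.960% after LPS and at 4.80% and 0.695% after saline. Immediate early genes had 2 LPS-only and 4 saline-only of 366 windows, with Fos, Junb, Npas4 and Nr4a1 open in every library. Circadian clock genes had 3 and 10 of 589 windows, and all 15 with an annotated promoter had a promoter peak in all 5 libraries. Cholinergic and esterase genes, whose products include the targets of DFP, had 1 and 2 of 335 windows.

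Among cell type lists, LPS-only and saline-only windows numbered 1 and 8 of 321 for microglia, 0 and 4 of 343 for astrocytes, 0 and 1 of 334 for the oligodendrocyte lineage, 3 and 3 of 399 for endothelial and mural cells and 1 and 0 of 62 for blood cells. They were 6 and 9 of 1137 for striatal, 9 and 15 of 1237 for cortical, 3 and 6 of 506 for inhibitory neuron and 3 and 4 of 423 for hippocampal markers. In every list the LPS-only share lay between 0 and 1.61% and the saline-only share between 0 and 2.62%, beside 0.653% and 1.15% of all windows. The blood list held no window near the haemoglobin genes Hbb-bs and Hba-a1. Most genes had no separating window, so the median difference per gene was 0 in every list and over all genes. Of 18961 genes, 1070 (5.64%) had more LPS-only and 2399 (12.7%) more saline-only windows. These counts were 0 and 5 of 20 microglia genes, 1 and 5 of 20 inhibitory neuron genes and 6 and 8 of 27 cortical genes. They were 0 and 3 of 17 astrocyte genes, 0 and 1 of 19 oligodendrocyte genes and 1 and 0 of 10 blood cell genes. Without LPS replicate 1 the LPS-only and saline-only counts were 2 and 9 for interferon, 7 and 18 for glucocorticoid, 4 and 5 for immediate early, 6 and 17 for clock and 2 and 2 for cholinergic genes. They were then 2 and 10 for microglia, 2 and 6 for astrocytes, 0 and 3 for oligodendrocytes, 5 and 9 for endothelial and mural cells and 1 and 1 for blood cells. For striatal, cortical, inhibitory and hippocampal markers they were 16 and 18, 16 and 26, 7 and 7, and 5 and 7.

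**Figure D5:**
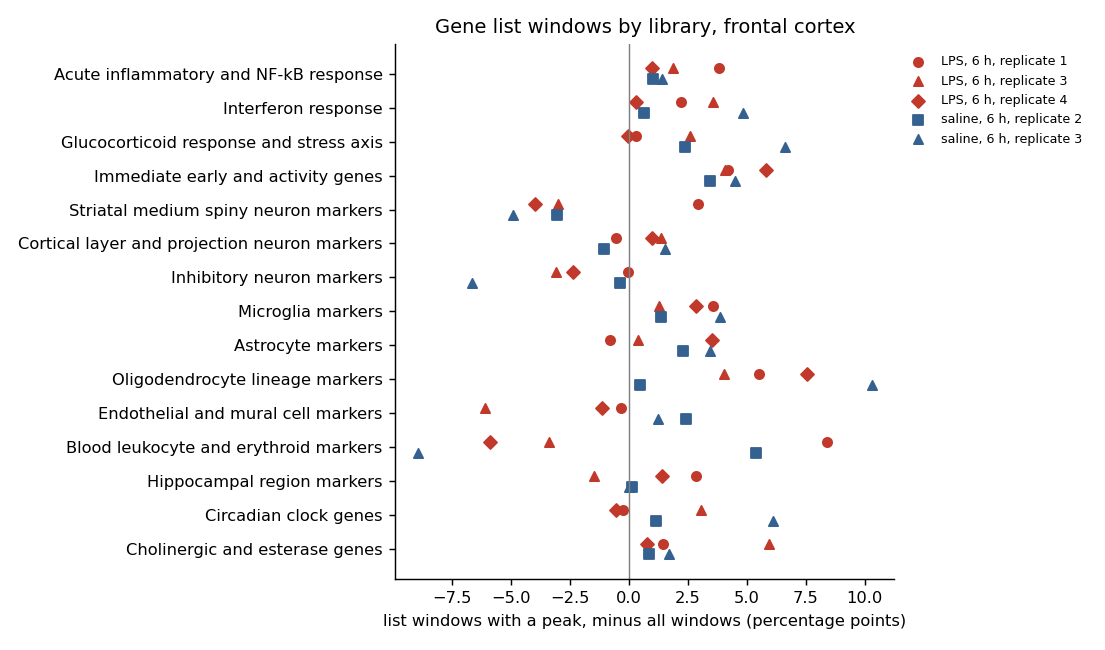
For each gene list and cortex library, the share of the list's windows with a peak minus the share of all windows of that library (percentage points), LPS in red and saline in blue. In most lists the LPS and saline points overlap, and for striatal markers LPS replicate 1 alone lies above 0, at 2.94 points.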

How the data were processed

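Peaks of 16 libraries were used. Per the submitters' processing notes, the tools named, with no role given, were MACS2 2.2.7.1, Bowtie2 2.4.4, FastQC 0.11.9 and Trim Galore 0.6.7, and the build was GRCm38 (mm10). The sources used here do not say whether reads were shifted for the transposase, or what was done with duplicates and reads matching several places. Each deposited list holds, per library and not pooled, a score, a fold enrichment (ratio over background), a −log10 p-value and a −log10 q-value for each summit, per the file layout. These deposited values were used only to filter and rank within a library. The csaw regions carry a deposited score of −10 times log10 of the FDR. No deposited column gives reads, so no interval could be set.

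Windows of 250 bp to each side were built on summits of the 5 cortex libraries, and a peak counted where it overlapped at least 50% of the shorter of the 2. Windows were given to the nearest protein-coding gene within 100 kb (RefSeq, GRCm38.p6). Functions were tested on simulated peaks with known answers. Group means were compared with two-sided exact permutation tests. Regions of the authors' table were joined within 5 kb, and the 15 per direction with the lowest FDR, with any region nearest to a list gene, could be named. Of separating windows, the 10 per direction with the best weakest rank and up to 3 per list could be named. The 15 gene lists and the members were chosen with earlier results of these data known. Alternatives were stricter peaks (−log10 q of 5), the 50000 strongest peaks, other overlaps, merged peaks, regions of FDR up to 0.01, and each library left out in turn. Promoter results and copies were added after the data were seen. Where no source says that libraries came from separate litters or days, p-values measure only the spread between these mice. Python 3.11.15, numpy 2.4.6 and pandas 2.3.3 were used. 1 region among those the rule would name is not reported here.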

Additional observations from a re-analysis of the deposited data

Results flagged for a closer look

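LPS replicate 1 had 113 peak intervals on unplaced or unlocalised contigs, sequences left out of the windows and comparisons. The other LPS libraries had 38 and 50 and the saline libraries 46 and 57, and the 11 other libraries had 32 to 65. On the Y chromosome the same library had 70 intervals, against 18 and 18 in the other LPS libraries and 26 and 27 in the saline libraries. The cause was not tested.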

How the results depend on the processing

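No paired analysis was possible because the LPS libraries (replicates 1, 3 and 4) and the saline libraries (replicates 2 and 3) came from different mice. A replicate number found in both groups does not mark a pair. Under the stricter limit on −log10 q (at least 5), LPS-only windows numbered 1244 and saline-only windows 2279, and with the 50000 strongest peaks per library 837 and 961. An overlap of 25%, an overlap of 1 base and merged peaks each kept both counts within 1.5 times. Leaving out each library in turn gave 3841 to 10039 LPS-only and 5331 to 41338 saline-only windows, a rise that follows in part from requiring fewer libraries. Without LPS replicate 3 the LPS-only windows (7427) outnumbered the saline-only windows (5331). LPS-only promoters numbered 54 to 184 and saline-only promoters 124 to 498 that way, with 24 and 57 for strict peaks and 41 and 39 for the strongest 50000. The LPS minus saline share of higher regions ran between 1.49 and 28.0 points, lowest without LPS replicate 1, and that of lower regions between -37.2 and 0 points, with -36.0 points for the 50000 strongest peaks. In hippocampus the higher regions stood at -3.63 points with strict peaks and, with each library left out in turn, between -3.47 and 1.98 points, and were reversed without LPS replicate 4 (0.743) or saline replicate 2. The excess of LPS replicate 1 at copied promoters was 5.19 points over the mean of the other 4 libraries, and 5.48 points with the 50000 strongest peaks. The difference in peak intervals ran between -34324 and 11524, and was 1758 without LPS replicate 3, and that in the share near gene ends between -0.481 and 0.558 points, and was -0.267 without LPS replicate 3. Of the gene list shares under these alternatives, 83 stayed within the spread of replicates and 7 did not. Staying within the spread did not fix the sign. The LPS minus saline share was below 0 in every list with all libraries. Without saline replicate 2 it rose above 0 in most lists, such as inflammatory (-2.38 to 3.98 points) and striatal (-0.733 to 6.74). It stayed below 0 for the glucocorticoid, oligodendrocyte, endothelial and clock lists. Of all windows, 69.0%, 58.2% and 68.8% had a peak in LPS replicates 1, 3 and 4, and 75.3% and 62.2% in saline replicates 2 and 3. The list differences were not set against these shares, so their sign does not mark a list apart from all windows. The causes were not tested. Depth is unknown, so an uncalled peak is not a closed site.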
